A study of Mus musculus with 6 samples.

Results

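Skeletal muscle of LDKO mice, which lack both insulin receptor substrates in the liver, was compared with the muscle of both other genotypes of the series. The genes described are those for which both LDKO libraries lay above, or both below, all 4 other libraries. They number 2865 of 16495 genes tested, out of 53342 genes in the table. For 1418 genes (8.6%) both LDKO libraries lay above the other 4, and for 1447 genes (8.77%) both lay below. Nothing more than an ordering of 6 values is asked for here, and the median distance between the LDKO libraries and the nearest other library was 0.114 on the log2 scale.

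RNA sequencing of skeletal muscle from male mice gave 6 libraries, 2 for each of 3 genotypes. Control mice carry the library name Loxp, and the labels do not detail their alleles. LDKO mice (Irs1L/L:Irs2L/L:CreAlb) lose Irs1 and Irs2 in hepatocytes, since the albumin promoter drives their Cre recombinase. LTKOFstL/L mice come from a cross of LDKO with FstL/L mice, in which loxP sites flank exons 2 to 5 of Fst, the gene of follistatin. The sample labels record a high fat diet, while the series description records chow from 5 to 16 weeks of age, so the diet is not settled. No label says that the 2 libraries of a genotype come from separate animals. The p-values rest on the spread between these libraries, pooled over genotypes and drawn toward that of many genes. They may not cover the spread between animals.

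Irs1 and Irs2 are the adaptor proteins that pass the signal of the insulin receptor to PI3-kinase and Akt, which in hepatocytes keeps the transcription factor FoxO1 out of the nucleus. Follistatin is a secreted protein, made in quantity by the liver, that binds activins and myostatin and keeps them from their receptors. In muscle those receptors act through Smad2 and Smad3 and restrain fibre growth. Fibres of skeletal muscle are slow or fast by the myosin and troponin forms they contain, slow fibres being the more oxidative. The comparison asks which muscle genes differ in LDKO both from Control and from mice in which Fst was targeted as well.

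Values are log2 expression centred on each gene's median of the 6 libraries, so that 0 is the middle of the 6 and 1 unit is a 2-fold difference. The test was limma on the difference between the LDKO mean and the average of the 2 other group means, with Benjamini-Hochberg adjustment over all 16495 genes, two-sided, and a threshold of 0.05. It called 21 genes higher in LDKO (0.127%) and 13 lower (0.0788%), with 2215 genes at an unadjusted p under 0.05. Of these 34 genes, 30 also had both LDKO libraries outside the range of the other 4, 19 above and 11 below. The calls rest on few libraries: 23 of the 34 remained without Control 1, 4 without Control 2, 23 without LDKO 1, 31 without LDKO 2, 3 without LTKOFstL/L 1 and 6 without LTKOFstL/L 2. When one library is left out, the lone library of its genotype is assumed to vary like those of the others.

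The LDKO libraries stood apart from the other 4 in a technical measure. One read was estimated at 1.81 and 1.76 scaled units in the LDKO libraries, against 2.12 and 2.03 in Control and 2.12 and 2.11 in LTKOFstL/L. This difference and the genotype cannot be told apart, and the total depth is unknown. The 2 LDKO libraries also differed more from each other, with a median absolute difference of 0.265 over the 7544 highest genes, against 0.167 in Control and 0.147 in LTKOFstL/L. The 10 myofibre markers (Acta1, Ckm and others) had median log2 levels estimated at 12.71 (Mb) or higher, and their centred library medians were 0.27 in LDKO 1 and -0.18 in LDKO 2, with the other 4 between them. Both Control libraries carried RNA of pancreatic acinar genes, with medians of 12.2 and 8.05 against -1.72 to 0.81 in the other 4. None of those 29 genes was called, so leaving them out could hardly change the calls, which stayed at 21 and 13. Whether the acinar RNA shifted the Control values of other genes was not tested.

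Control and LTKOFstL/L muscle also differ from each other, and that bears on every gene below. Under the same test LTKOFstL/L stood apart from the mean of the other genotypes for 663 genes (4.02%) and Control for 57 (0.346%). Both LTKOFstL/L libraries lay outside the other 4 for 30.6% of genes, and both Control libraries for 13.2%. Set against each genotype on its own, LDKO differed from Control for 2 genes (0.0121%) and from LTKOFstL/L for 451 (2.73%). Of the 34 genes called against the average, 32 were also called against LTKOFstL/L and 2 against Control, and 26 differed more from LTKOFstL/L than from Control. When a gene had to pass against both genotypes separately, only the predicted gene Gm6472 was left. The account therefore gives the distance from each genotype as well as the difference from their average for the called genes, and for others where values are given in full. For 8 of the 30 genes that were called and outside the range, the distances from Control and from LTKOFstL/L were within 1.5 times of each other.

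**Figure D1:**
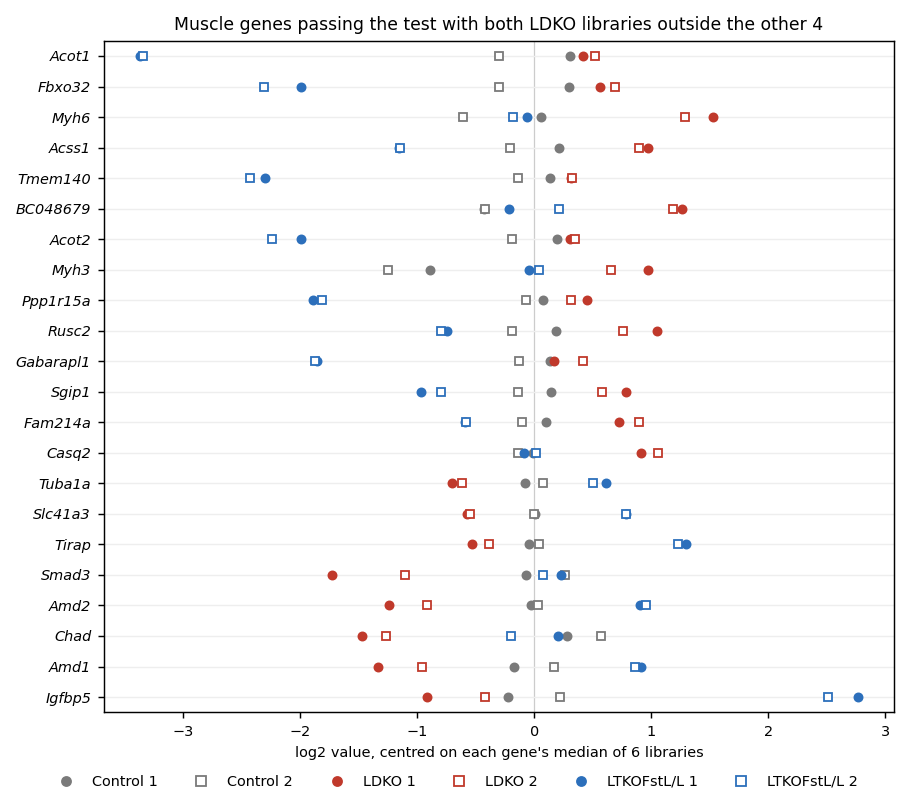
Values of 22 protein-coding genes named from the test, one row per gene, with the log2 value centred on the gene's median on the x axis. Grey marks Control, red LDKO and blue LTKOFstL/L, with filled circles for library 1 and open squares for library 2. In every row both red points lie outside the other 4, with Control beside LDKO in rows such as Acot1 and beside LTKOFstL/L in rows such as Casq2 and Chad.

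Some muscle genes among the calls lay above both other genotypes. Casq2, the calsequestrin that stores calcium in the sarcoplasmic reticulum of slow and cardiac muscle, and Myh6, the alpha cardiac myosin heavy chain, rose in LDKO muscle about 2-fold and 3-fold. Myh3, the embryonic myosin heavy chain, also rose, at a larger distance from Control than from LTKOFstL/L. The promoters of these 3 genes are shown because they are calls of muscle contraction and calcium storage, and the E-box, CANNTG, bound by the myogenic factors of the MyoD family, is in capitals (RefSeq, GRCm38.p6, 300 bases around each start, 5′ to 3′ on the gene's strand).
Casq2 (chr3:102086165-102086464, plus strand): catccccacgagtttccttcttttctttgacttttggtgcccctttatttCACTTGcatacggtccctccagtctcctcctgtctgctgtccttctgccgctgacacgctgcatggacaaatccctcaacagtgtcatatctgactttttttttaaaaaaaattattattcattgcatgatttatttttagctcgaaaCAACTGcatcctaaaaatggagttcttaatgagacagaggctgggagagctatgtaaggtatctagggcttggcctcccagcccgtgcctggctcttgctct
Myh6 (chr14:54966558-54966857, minus strand): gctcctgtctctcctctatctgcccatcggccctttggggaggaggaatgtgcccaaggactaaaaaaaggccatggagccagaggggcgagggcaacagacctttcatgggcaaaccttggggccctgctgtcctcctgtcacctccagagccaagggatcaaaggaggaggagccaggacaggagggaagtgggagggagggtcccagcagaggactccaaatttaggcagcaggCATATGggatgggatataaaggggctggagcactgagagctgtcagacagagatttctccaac
Myh3 (chr11:67078050-67078349, plus strand): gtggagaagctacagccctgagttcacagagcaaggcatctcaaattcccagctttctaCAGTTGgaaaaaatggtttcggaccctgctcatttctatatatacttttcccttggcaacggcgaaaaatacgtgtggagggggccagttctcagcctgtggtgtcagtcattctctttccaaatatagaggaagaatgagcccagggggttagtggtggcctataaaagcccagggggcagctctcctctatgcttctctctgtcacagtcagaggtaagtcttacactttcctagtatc
Casq2 holds 2 E-boxes in this window and Myh6 and Myh3 hold 1 each. An E-box is common: 72.3% of all 32851 promoter windows hold one on either strand, and 65.2% of the 14207 windows of tested genes, against 23 of the 29 windows (79.3%) of the called genes outside the range that matched the table, 24 genes in all. The other motifs searched were CAGAC (Smad), in 55.2% of the 29 windows against 49.6% of all and 47.8% of tested genes, the MEF2 element, in 3.45% against 3.69% and 3.18%, and AGAACA (glucocorticoid response element), in 10.3% against 19.0% and 13.4%. A match describes letters only.

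Casq2 (chr3:102086415-102146514) read 0.92 and 1.06 in LDKO, -0.01 and -0.14 in Control, and -0.09 and 0.01 in LTKOFstL/L. The 4 other libraries ranged from -0.14 to 0.01, and both LDKO libraries lay at least 0.90 above them. The difference from the average of both was 1.05 ± 0.12 (SE), with an adjusted p of 0.0402 from limma. The distance was 1.06 from Control (adjusted p = 0.0837) and 1.03 from LTKOFstL/L (adjusted p = 0.0194), so the first did not pass alone.

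Myh6 (chr14:54941921-54966927) read 1.53 and 1.28 in LDKO, 0.06 and -0.61 in Control, and -0.06 and -0.19 in LTKOFstL/L. Its lowest LDKO library lay 1.22 above the highest of the others. It rose by 1.61 ± 0.20 against the average, with an adjusted p of 0.0455. It lay 1.68 above Control and 1.53 above LTKOFstL/L (adjusted p of 0.0839 and 0.0237 by limma).

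Myh3 (chr11:67078300-67102291) read 0.97 and 0.66 in LDKO, -0.89 and -1.25 in Control, and -0.04 and 0.04 in LTKOFstL/L. The 3 genotypes formed 3 levels that did not overlap, with LTKOFstL/L in the middle. The rise against the average was 1.35 ± 0.16 (adjusted p = 0.0378), made of 1.88 against Control and 0.81 against LTKOFstL/L. Neither of these 2 distances passed the limma test on its own (adjusted p of 0.0732 and 0.0682). Myh3 and Myh6 belong to a family of long, similar transcripts, so reads may be shared with other myosin genes. The calls of Casq2 and Myh6 were each lost in 4 of the 6 fits that left out a library, and that of Myh3 in 3. The size of the rise moved little in those fits, from 0.97 to 1.12 for Casq2, from 1.44 to 1.77 for Myh6 and from 1.19 to 1.5 for Myh3.

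BC048679 (chr7:81494275-81498281) shared the pattern of Casq2. It read 1.26 and 1.19 in LDKO, -0.43 and -0.42 in Control, and -0.21 and 0.21 in LTKOFstL/L. The rise was 1.44 ± 0.15 (adjusted p = 0.0289), at 1.65 from Control and 1.22 from LTKOFstL/L (adjusted p of 0.0823 and 0.0199 by limma).

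**Figure D2:**
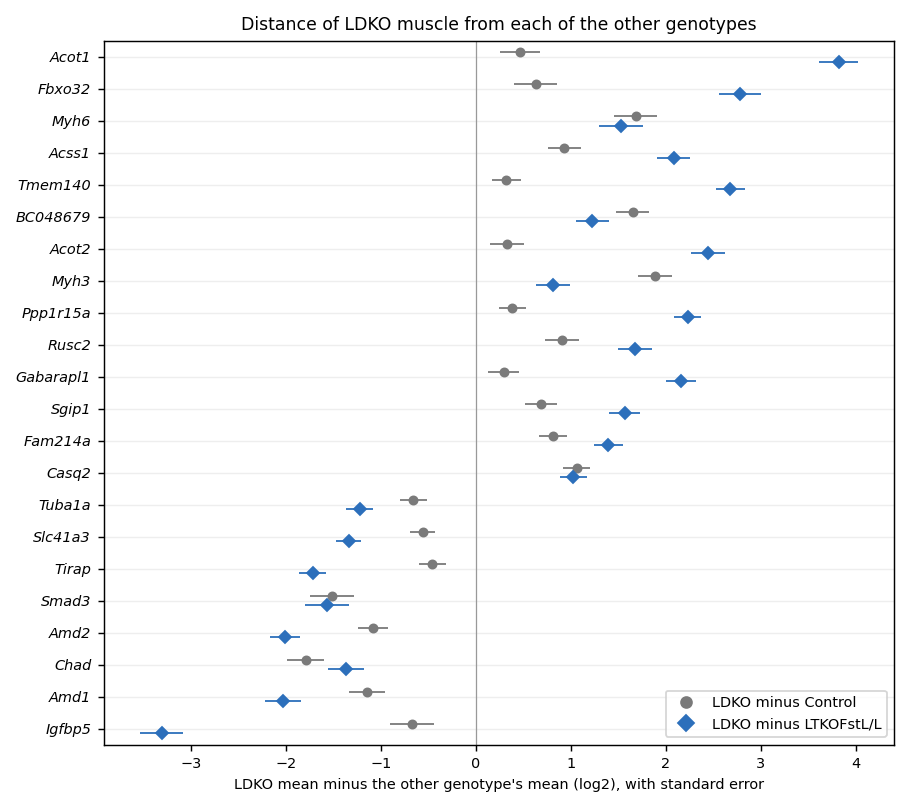
Distance of the LDKO mean from the Control mean (grey circles) and from the LTKOFstL/L mean (blue diamonds) on the log2 scale, for the same 22 genes, with standard errors from limma. The paired points lie close together for Casq2, Myh6, Smad3 and Chad, and far apart for Acot1, Tmem140 and Igfbp5, where LDKO lies near Control.

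Beyond those genes, the slow fibre list as a whole lay high in LDKO. All 15 of its genes had an LDKO mean above both other means, and for 10 of 15 both LDKO libraries lay above the other 4 (66.7%, against 8.6% of all genes). Myh7, a slow myosin heavy chain, is among the 10 by a distance of 0.002, with LDKO 1 at 0.054 and Control 1 at 0.052. Its difference was 0.54 ± 0.23 (adjusted p = 0.370 by limma). Ankrd2 and Actn2 met the ordering by 0.03 and 0.06. The median difference over the list was 0.58, at 0.63 from Control and 0.51 from LTKOFstL/L, beside 0.00 over all tested genes. Casq2 alone passed the test, and 12 of 15 had an unadjusted p under 0.05. Myl6b, a slow myosin light chain, read 0.77 and 0.90 in LDKO against -0.55 to 0.24 in the other 4, a difference of 1.05 ± 0.19 with an adjusted p of 0.101. Tnnt1 and Tnni1, the slow troponins T and I, differed by 0.86 ± 0.16 (adjusted p = 0.118) and 0.70 ± 0.15 (adjusted p = 0.144). Myoz2, a calsarcin of the slow fibre Z disc, differed by 0.58 ± 0.14 (adjusted p = 0.174). In bulk muscle, more slow fibres and more of these transcripts per fibre cannot be told apart.

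Fast fibre genes did not share this displacement. Of 15 genes, 2 lay above (13.3%, against 8.6% of all) and none below, with a median difference of 0.01. The 2 were the fast myosins Myh2 and Myh1, at 0.53 ± 0.16 and 0.49 ± 0.15, neither of which passed the test (adjusted p of 0.251 and 0.254). Without LDKO 1 the list's median was -0.20, and library medians of the list ranged from -0.18 to 0.11 within LDKO itself. For the slow list they were 0.47 and 0.48 in the LDKO libraries, 0.05 and -0.37 in Control and -0.13 and -0.03 in LTKOFstL/L. The LDKO medians lay above the other 4.

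**Figure D3:**
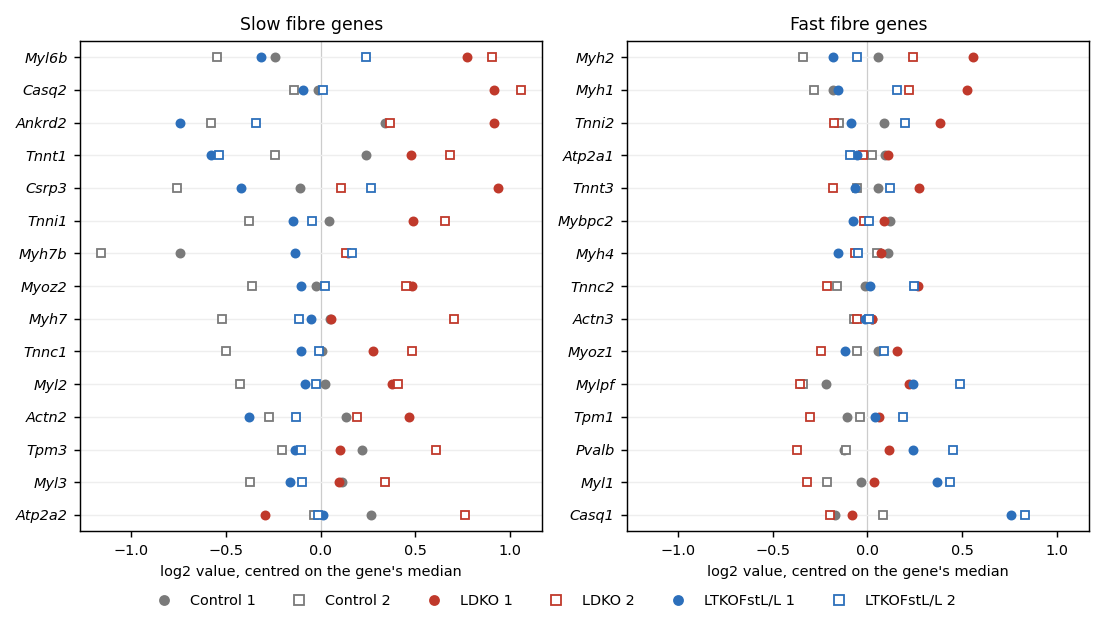
Values of the 15 slow fibre genes (left) and the 15 fast fibre genes (right) in the 6 libraries, ordered by the difference of LDKO from the average of both others. Axes, colours and symbols are log2 values centred on the gene's median, grey for Control, red for LDKO and blue for LTKOFstL/L. Red points lie to the right in 10 of 15 slow genes and in 2 of 15 fast genes.

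In the list of developmental and denervation genes, 4 of 22 lay above (18.2%, against 8.6% of all) and 1 below, and Myh3 alone passed the test. Ankrd1, a stretch-responsive ankyrin repeat protein, read 0.71 and 0.60 in LDKO against -0.57 to 0.39 in the others, a difference of 0.90 ± 0.30 (adjusted p = 0.268). Gadd45a, a growth arrest gene that denervation induces, differed by 0.94 ± 0.21 (adjusted p = 0.149), at 0.33 from Control and 1.55 from LTKOFstL/L. Myod1 lay below by 1.13 ± 0.31 on the log2 scale, with an adjusted p of 0.206. Its difference was -0.65 against Control and -1.61 against LTKOFstL/L. The ordering was met narrowly by Gadd45a (by 0.007), Myod1 (by 0.02) and Ncam1 (by 0.001), which also lay above. Sln, sarcolipin, which uncouples the calcium pump of the sarcoplasmic reticulum, read 1.44 and 0.91 in LDKO, 0.13 and -0.77 in Control and -0.99 and -0.13 in LTKOFstL/L. Its difference was 1.62 ± 0.33, with an adjusted p of 0.124, at 1.5 from Control and 1.74 from LTKOFstL/L. All 4 other libraries lay at least 0.78 below LDKO.

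Among genes that fell, Chad and Smad3 stood at a like distance from both other genotypes. Chad, chondroadherin, is a leucine-rich repeat protein of cartilage and tendon matrix that binds collagen. Smad3 is the transcription factor through which activins, myostatin and TGF-beta signal. Both fell about 3-fold in LDKO muscle.

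Chad (chr11:94565047-94569127) read -1.47 and -1.27 in LDKO, 0.28 and 0.57 in Control, and 0.20 and -0.20 in LTKOFstL/L. The lowest of the other 4 libraries lay 1.07 above the higher LDKO library. It fell by 1.58 ± 0.17 on the log2 scale against the average, with an adjusted p of 0.0289. The difference was -1.79 against Control and -1.37 against LTKOFstL/L (adjusted p of 0.0823 and 0.0195 by limma). The gene overlaps Acsf2 on the opposite strand, and reads of the pair cannot be told apart without strand. The call was lost in 2 of the 6 fits that left out a library, without Control 2 and without LTKOFstL/L 1.

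Smad3 (chr9:63646767-63757994) read -1.73 and -1.11 in LDKO, -0.07 and 0.26 in Control, and 0.22 and 0.07 in LTKOFstL/L. The 4 other libraries ranged from -0.07 to 0.26. It fell by 1.54 ± 0.20 (adjusted p = 0.0496), which is at the threshold. The difference was -1.51 against Control and -1.57 against LTKOFstL/L (adjusted p of 0.114 and 0.022 by limma). The call was kept without LDKO 1 or LDKO 2, where the difference was -1.23 and -1.85, and was lost without any of the 4 other libraries.

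Chad belongs to the list of fibroblast and tendon markers, which lay low in LDKO muscle. For 8 of 16 genes (50%, against 8.77% of all) both LDKO libraries lay below the other 4, none lay above, and 14 of 16 LDKO means were below both other means. The list's median was -0.52, at -0.64 from Control and -0.35 from LTKOFstL/L. Only Chad passed the test, and 10 of 16 had an unadjusted p under 0.05. Tnmd, tenomodulin, the membrane protein that marks tendon cells, read -1.06 and -1.35 in LDKO against -0.03 to 0.63 in the others, a difference of -1.47 ± 0.24 (adjusted p = 0.0731), at -1.21 against Control and -1.74 against LTKOFstL/L. Fmod, fibromodulin, which shapes collagen fibrils, differed by -0.92 ± 0.15 (adjusted p = 0.0809). Kera, keratocan, differed by -2.89 ± 0.64 (adjusted p = 0.144), at -2.65 and -3.14 against Control and LTKOFstL/L, and Comp, cartilage oligomeric matrix protein, by -0.52 ± 0.15 (adjusted p = 0.222).

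Smooth muscle and pericyte markers were also low in both LDKO libraries, while markers of other non-muscle cells were not low in both. The part of such cells in the falls of Chad and of matrix genes was not tested. The counts below stand beside 8.77% of all genes with both LDKO libraries below. Library medians of the 16 fibroblast and tendon markers were -0.38 and -0.34 in LDKO, against -0.00 to 0.21 in the other 4. Those of the 12 smooth muscle and pericyte markers were -0.19 and -0.17 against 0.01 to 0.16, with 4 of 12 genes below, Acta2 first at -0.70 ± 0.14 (adjusted p = 0.126). Of 15 Schwann cell and nerve markers 3 lay below (S100b and Mag among them), with medians of -0.74 and -0.07 in LDKO and -0.40 to 0.77 in the others, so the LDKO libraries did not stand together. Of 16 macrophage and leukocyte markers 3 lay below (Lyz2, by 0.003, Itgam and Ptprc). The medians of this list were -0.02 and -0.46 in LDKO and -0.03 to 0.14 in the others, so LDKO 1 lay within their range. Of 12 endothelial markers 2 lay below (Tek, by 0.01, and Eng), while 7 of 12 had an LDKO mean above the average of both other genotypes. Their library medians ranged from -0.07 to 0.02 over all 6. No marker of these 4 lists had both LDKO libraries above the rest. Adipocyte markers were high in LTKOFstL/L 1, with a list median of 1.59 against -0.45 to 0.33 in the other libraries, and 1 of 13, Ucp1, lay below in LDKO.

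**Figure D4:**
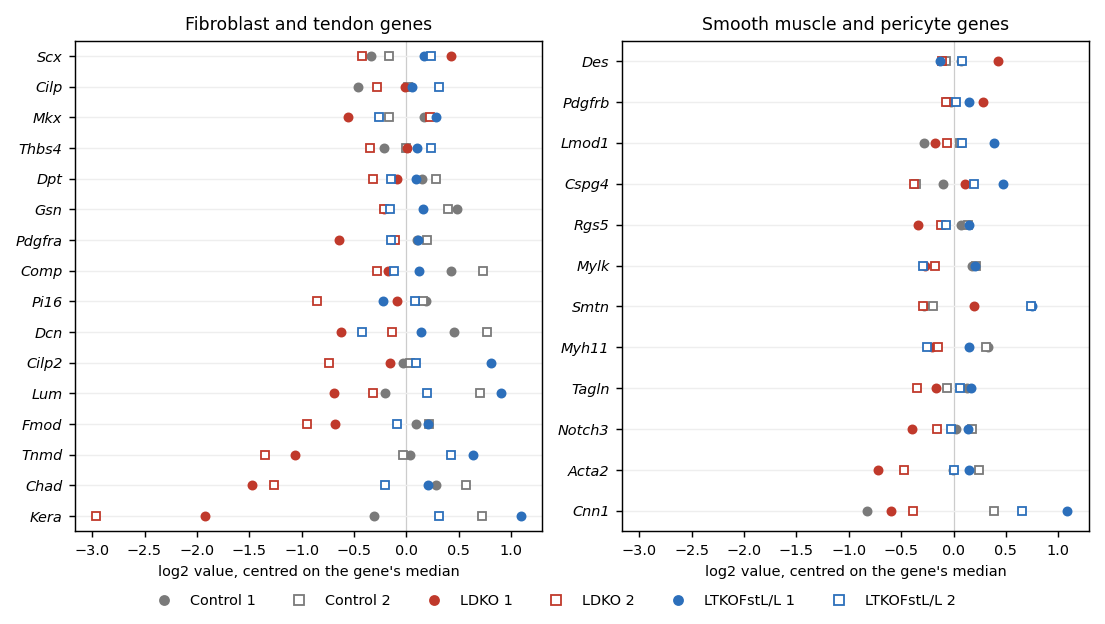
Values of 16 fibroblast and tendon markers (left) and 12 smooth muscle and pericyte markers (right) by library, as log2 values centred on each gene's median, with grey for Control, red for LDKO and blue for LTKOFstL/L. Red points lie lowest for 8 of 16 and 4 of 12 genes, with the widest distance for Kera, Chad, Tnmd and Fmod.

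Extracellular matrix genes differed mainly between LDKO 2 and LTKOFstL/L. Library medians were -0.03 and -0.31 in LDKO, -0.02 and 0.03 in Control, and 0.25 and 0.39 in LTKOFstL/L, so LDKO 1 was level with Control 1. Of 36 genes 10 lay below (27.8%, against 8.77% of all) and none above. Sparc, Col6a2 and Col4a1 met the ordering by 0.01 each, and Sparc differed by -0.04 from Control and -0.90 from LTKOFstL/L. The list's median of -0.35 split into -0.12 against Control and -0.51 against LTKOFstL/L. None passed the limma test after adjustment, and 17 of 36 had an unadjusted p under 0.05. Col15a1, a collagen of muscle basement membranes, read -0.92 and -1.0 in LDKO, -0.19 and 0.19 in Control, and 1.33 and 0.87 in LTKOFstL/L (-1.51 ± 0.26, adjusted p = 0.0793). Fbn1, fibrillin, differed by -0.99 ± 0.17 (adjusted p = 0.0949) and Col1a2, a chain of type I collagen, by -0.92 ± 0.16 (adjusted p = 0.0993). Col1a2 lay nearer to Control (-0.50) than to LTKOFstL/L (-1.33).

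Within the activin, myostatin and BMP list, 9 of 47 genes lay below (19.15%, against 8.77% of all) and 4 above. The median over the list was -0.19. The median was -0.01 without LDKO 1 and -0.41 without LDKO 2. Smad3 was the one gene called. Among ligands, Tgfb2, a TGF-beta, read -0.83 and -0.54 in LDKO against -0.16 to 0.50 in the others, and differed by -0.91 ± 0.20 (adjusted p = 0.144). Receptors of the list did not share a direction. Acvr1b and Acvr2b, the type I and type II receptors for activin and myostatin, differed by 0.56 ± 0.18 (adjusted p = 0.257) and 0.77 ± 0.28 (adjusted p = 0.293). Acvr1b met the ordering by 0.0035, and Acvr2b read 0.92 and 0.24 in LDKO. The receptors Acvr1 and Acvr2a differed by -0.43 ± 0.27 and -0.44 ± 0.44 (adjusted p of 0.524 and 0.710 by limma).

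Fst itself, the antagonist in this pathway, lay below in LDKO muscle. It read -1.23 and -0.32 in LDKO, -0.00 and 0.00 in Control, and 1.38 and 1.02 in LTKOFstL/L. The 3 genotypes did not overlap. The difference from the average was -1.37 ± 0.31 and missed the threshold (adjusted p = 0.131). Against LTKOFstL/L it was -1.97, with an adjusted p of 0.0324, and against Control -0.77 (adjusted p = 0.736). Since the Cre recombinase acts in hepatocytes, transcripts in muscle do not check the labels.

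Irs1 and Irs2 in muscle gave no stable direction. Irs1 read -0.60 and 0.16 in LDKO, 0.14 and 0.23 in Control and -0.14 and -0.41 in LTKOFstL/L (-0.18 ± 0.22, adjusted p = 0.770). Irs2 read -0.69 and 0.69 in LDKO, 0.90 and 0.81 in Control and -1.42 and -1.48 in LTKOFstL/L (0.30 ± 0.34, adjusted p = 0.748). The 2 LDKO libraries lay on opposite sides of the median for both genes. Without LDKO 1 the difference of Irs1 was 0.20, and without LDKO 2 that of Irs2 was -0.40. Without LDKO 1 the difference of Irs2 was 0.99 and passed the test.

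A second set of called genes was graded, with Control between LDKO and LTKOFstL/L. Acss1, the mitochondrial enzyme that activates acetate, read 0.97 and 0.89 in LDKO, 0.21 and -0.21 in Control and -1.16 and -1.15 in LTKOFstL/L. It rose by 1.51 ± 0.15 against the average (adjusted p = 0.0276), with 0.93 of distance from Control and 2.08 from LTKOFstL/L. Rusc2, Sgip1 and Fam214a had the same order of genotypes, with rises of 1.29 ± 0.16, 1.12 ± 0.14 and 1.1 ± 0.13 (adjusted p of 0.0436, 0.0496 and 0.0378). Their distances from Control were 0.90, 0.68 and 0.81, against 1.67, 1.57 and 1.40 from LTKOFstL/L.

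Amd1 and Amd2, near-identical genes for the decarboxylase that makes the aminopropyl donor of polyamine synthesis, fell together. Amd2 read -1.24 and -0.92 in LDKO, -0.03 and 0.03 in Control and 0.90 and 0.95 in LTKOFstL/L. It fell by 1.54 ± 0.14 on the log2 scale (adjusted p = 0.0204), at -1.08 against Control and -2.01 against LTKOFstL/L. Amd1 fell by 1.59 ± 0.16 (adjusted p = 0.0276), at -1.15 and -2.03 against the same groups, and the 2 may share reads, so they count as 1 observation. Smox, spermine oxidase, also of polyamine metabolism, lay below by 1.20 ± 0.17 without passing the test (adjusted p = 0.0731), at -0.96 against Control and -1.45 against LTKOFstL/L. Slc41a3, a magnesium transporter, and Tuba1a, an alpha tubulin, fell by 0.95 ± 0.11 and 0.94 ± 0.12 (adjusted p of 0.0413 and 0.0496). They stood at -0.56 and -0.66 against Control and at -1.34 and -1.22 against LTKOFstL/L.

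Another set owed most of its difference to LTKOFstL/L. Acot1 and Acot2, neighbouring genes on chromosome 12 for thioesterases that release fatty acids from coenzyme A, were called higher. Acot1 read 0.41 and 0.52 in LDKO, 0.30 and -0.30 in Control and -3.37 and -3.34 in LTKOFstL/L. The difference from Control was 0.47, with a distance of 0.11 between the nearest libraries, while that from LTKOFstL/L was 3.82. Acot2 followed at 0.33 and 2.44, and the 2 paralogs may share reads. Tmem140, Ppp1r15a, the phosphatase subunit that reverses the phosphorylation of eIF2-alpha, and Gabarapl1, an ATG8-family protein of autophagosomes, had distances of 0.32, 0.38 and 0.29 from Control against 2.68, 2.23 and 2.16 from LTKOFstL/L. Igfbp5, an IGF-binding protein, and Tirap, an adaptor of Toll-like receptors, were the falls of this kind. Igfbp5 read -0.92 and -0.42 in LDKO, -0.22 and 0.22 in Control and 2.77 and 2.51 in LTKOFstL/L. None of these 7 genes differed from Control by the test (adjusted p of 0.585 to 0.783), which does not show that they were equal.

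The ordering at the edge of the range was close for some calls. Gabarapl1 met the ordering by 0.04, since LDKO 1 read 0.17 and Control 1 read 0.13. The ordering was not met by 4 called genes, Aarsd1, Rsc1a1, Gm10327 and 3110062M04Rik, named because they are few. Aarsd1 read 0.42 and -0.00 in LDKO, 0.20 and 0.00 in Control and -3.93 and -3.94 in LTKOFstL/L. Gm10327, a processed pseudogene, read 7.38 and 7.86 in Control and -0.21 to 0.04 in the other 4 libraries.

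Gm6472 (chrX:152909505-152910155), one of the 3 genes with the smallest p, had the widest distance above among the genes called. It read 3.81 and 4.30 in LDKO and -0.38 to 0.20 in the other 4. The difference was 4.21 ± 0.27 (adjusted p = 0.00259), at 4.34 from Control and 4.07 from LTKOFstL/L, with adjusted p of 0.00427 against Control and 0.00235 against LTKOFstL/L, and it was called in all 6 fits that left out a library. It is annotated as a transcribed processed pseudogene that overlaps Rpl7a-ps12 on the same strand, so its reads may come from a near-identical copy elsewhere. Over the 30 genes called and outside the range, 21 overlap another annotated gene and 11 a protein-coding one, and the labels do not say whether strand was used in counting.

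Genes of muscle breakdown differed mainly between LDKO and LTKOFstL/L. In the atrophy and FoxO list 9 of 31 genes (29%, against 8.6% of all) lay above and none below, with a median of 0.48 that was 0.19 against Control and 0.87 against LTKOFstL/L. The median was 0.79 without LDKO 1. Library medians were 0.17 and 0.34 in LDKO, 0.27 and -0.11 in Control, and -0.63 and -0.64 in LTKOFstL/L, so LDKO 1 lay below Control 1. The members called, 3 in number, included Gabarapl1 and Fbxo32, the muscle ubiquitin ligase atrogin-1. Fbxo32 read 0.56 and 0.69 in LDKO, 0.30 and -0.30 in Control and -1.99 and -2.31 in LTKOFstL/L. Its rise against the average was 1.70 ± 0.19 (adjusted p = 0.0376), with 0.63 from Control and 2.78 from LTKOFstL/L. Trim63, the ligase MuRF1, and Sesn1, sestrin 1, lay above by 2.00 ± 0.28 and 2.04 ± 0.30 without passing the test (adjusted p of 0.0586 and 0.0731). Trim63 lay 0.77 from Control and 3.24 from LTKOFstL/L, and Sesn1 1.21 and 2.87. Cebpd, a stress-responsive transcription factor, differed by 1.60 ± 0.29 (adjusted p = 0.102), at 0.67 from Control and 2.54 from LTKOFstL/L. The ordering was met narrowly by Ctsl (by 0.001), Cebpd (by 0.02), and Gabarapl1 and Klf15 (by 0.04 each).

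Proteasome subunits showed small differences in one direction that rested on 1 library. The LDKO mean was above both others for 25 of 31 subunits, and both libraries lay above for 6 (19.35%, against 8.6% of all genes). None passed the limma test after adjustment, 3 had an unadjusted p under 0.05, and the list's median of 0.23 was 0.05 without LDKO 1. Library medians were 0.28 in LDKO 1 and 0.00 in LDKO 2, the latter inside the range of -0.17 to 0.06 of the other 4. Psmd11 differed most by p, at 0.40 ± 0.12 (adjusted p = 0.231).

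Fatty acid oxidation genes lay high in both LDKO libraries. For 15 of 35 genes both libraries lay above the others (42.9%, against 8.6% of all), and 1 lay below. The ordering was met narrowly by some, such as Hadhb (by 0.01) and Acaa2 (by 0.05). The list's median was 0.26, at 0.20 from Control and 0.35 from LTKOFstL/L. Library medians were 0.22 and 0.19 in LDKO and -0.12 to 0.03 in the other 4. Acot1 and Acot2 were the genes called. Plin5, the perilipin that ties lipid droplets to mitochondria, read 0.62 and 0.49 in LDKO, 0.12 and -0.12 in Control and -0.76 and -0.82 in LTKOFstL/L (0.95 ± 0.13, adjusted p = 0.0586). Acadl, the long-chain acyl-CoA dehydrogenase, and Decr1, the dienoyl-CoA reductase, differed by 0.47 ± 0.12 and 0.49 ± 0.13 (adjusted p of 0.190 and 0.205), and Slc27a1, a fatty acid transport protein, by 0.43 ± 0.12 (adjusted p = 0.215). Cpt1a, the carnitine transferase form of the liver, was the gene below, at -0.34 ± 0.14 (adjusted p = 0.376).

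Oxidative phosphorylation genes did not follow: 0 of 53 lay above and 2 below, Cycs and Sdhd, and the median of 0.09 became -0.11 without LDKO 1. No gene of this list passed the test by limma after adjustment, and 1 had an unadjusted p under 0.05. In the glycolysis and glycogen list 8 of 33 lay below (24.2%, against 8.77% of all) and 2 above, with a median of -0.11. Eno1b, an enolase gene whose reads may be shared with Eno1, read 4.58 and 1.80 in LDKO against -2.57 to 0.24 in the others (4.31 ± 0.84, adjusted p = 0.120). Pgam1, phosphoglycerate mutase, differed by -0.62 ± 0.14 (adjusted p = 0.149), and the phosphoglucomutase genes Pgm2 and Pgm1 by -0.44 ± 0.12 (adjusted p = 0.211) and -0.89 ± 0.29 (adjusted p = 0.255). Ppargc1a, the coactivator PGC-1alpha, lay below at -1.59 and -0.56 in LDKO against -0.05 to 0.30 in the others (-1.18 ± 0.27, adjusted p = 0.152).

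**Figure D5:**
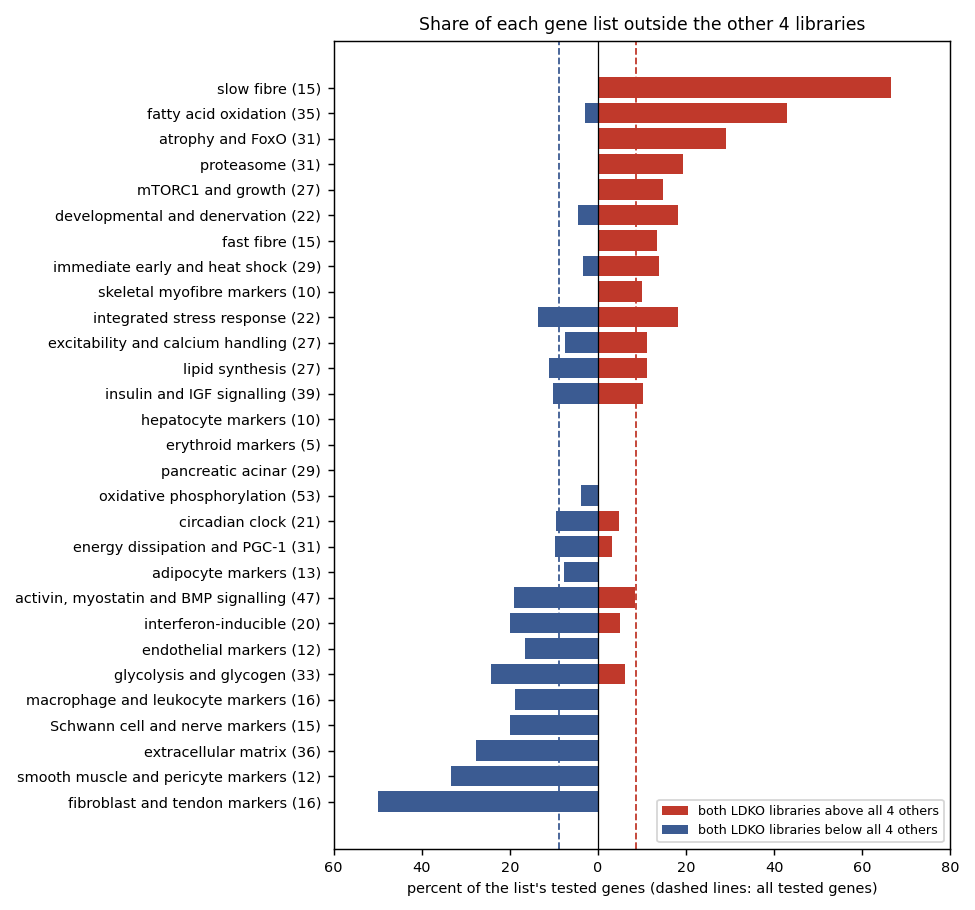
Share of the tested genes of each of 29 lists for which both LDKO libraries lay above (red, to the right) or below (blue, to the left) all 4 others, with the number of tested genes in brackets. Dashed lines mark the shares over all 16495 genes, 8.6% above and 8.77% below, and the slow fibre list (66.7% above) and the fibroblast and tendon markers (50% below) form the ends.

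The remaining lists are given by their counts, beside 8.6% above and 8.77% below over all genes. Insulin and IGF signalling had 4 of 39 genes above and 4 below (10.3% each), near those shares. Igfbp5 was called there, and Foxo3, a FoxO transcription factor, differed by 0.94 ± 0.18 (adjusted p = 0.121). The mTORC1 list had 4 of 27 above and none below, with a median of 0.04. Lipid synthesis had 3 of 27 on each side with Acss1 called, and the integrated stress response 4 of 22 above and 3 below with Ppp1r15a called. Immediate early and heat shock genes had 4 of 29 above and 1 below, the circadian clock 1 of 21 above and 2 below, and excitability and calcium handling 3 of 27 above (Casq2 called) and 2 below. Of 20 interferon-inducible genes 4 lay below (20%, against 8.77% of all) and 1 above, with a list median of -0.30, 11 LDKO means below both others and none called after adjustment (4 at an unadjusted p under 0.05). Erythroid (5), hepatocyte (10) and pancreatic acinar (29) markers had none on either side.

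Falls that ranked next by p without passing the test included a secreted regulator. Sfrp2, a secreted Wnt antagonist, read -1.60 and -1.45 in LDKO, -0.05 and 0.46 in Control and 0.34 and 0.05 in LTKOFstL/L, at -1.73 ± 0.26 against the average (adjusted p = 0.0586). The 4 other libraries lay at least 1.40 above LDKO. Thbd, thrombomodulin of endothelial cells, differed by -1.17 ± 0.17 (adjusted p = 0.0731), at -1.38 from Control and -0.97 from LTKOFstL/L. Kcng4, a modulatory potassium channel subunit, St8sia5, a sialyltransferase, and Nmrk2, the nicotinamide riboside kinase of muscle, were low against LTKOFstL/L (-1.84, -1.54 and -3.50) more than against Control (-0.33, -0.10 and -1.17).

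The submitters' own list for the same comparison holds 919 genes in the authors' deposited table, 466 of them higher and 453 lower in LDKO than in Control. That set is the 1378 genes of the authors' deposited table of LDKO against Control less the genes found in their table of LTKOFstL/L against Control (2176), with 0 genes of difference. It is therefore not a test of LDKO against both. In the authors' deposited table of LTKOFstL/L against LDKO, 396 of the 919 also appear, 204 with LDKO above both genotypes and 192 with LDKO below both. Of the 919, 417 were among the genes tested here, 278 of these had both LDKO libraries outside the range (112 above and 166 below), and 10 were called. Of the 34 genes called here, 24 are not in that list of the authors' deposited table. Casq2, Myh6, BC048679, Chad, Smad3, Amd1 and Amd2 are in it, with log2 differences from Control in the authors' deposited table of 1.06, 1.68, 1.65, -1.79, -1.51, -1.15 and -1.08.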

How the data were processed

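RNA was extracted with TRI Reagent and libraries were made with a SMARTer mRNA-seq kit, per the labels' protocols. Per the submitters' processing notes, reads were placed on mm10, with aligner, counter and scaling not given in the sources used here. In the deposited table are log2 values of library-scaled reads, floored at 1 and centred by the authors on each gene's median, but no counts, so the total depth is unknown. The authors' deposited tables of comparisons give log2 differences and corrected p-values.

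Levels were recovered from the floor or estimated from the rounding step. Genes with a log2 level of at least 4 (16 scaled units) in at least 2 libraries were tested, 16495 of the 30413 detected. limma 3.58.1 (R 4.3.3) was fitted to the 6 libraries with 1 mean per genotype and robust empirical Bayes priors in 3 strata of the lowest level, and was tested on simulated data. The value of 1 read was taken as the most frequent value among genes seen in that library only. With a tolerance of 0.001 of a read, values of known exact level were then checked for whole multiples of it. Such multiples made up 69.4% and 66.7% of those values in LDKO and 56.8% to 59.5% in the other 4 libraries.

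Named were Irs1, Irs2 and Fst, the 15 largest rises and the 15 largest falls among protein-coding genes that passed the test and lay outside the other 4 libraries, filled up to 15 by smallest p, and in each list the called members and up to 4 further ones by p. Predicted genes were named only among the 3 smallest p, and some genes that meet the rule are not reported here. The genes, lists and tests were chosen with earlier results of these data known. Coordinates are GENCODE M21 on GRCm38 (mm10). Alternatives are in the closing section. The diet and the pairing of libraries with animals remain unsettled.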

Additional observations from a re-analysis of the deposited data

How the results depend on the processing

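Counts of called genes depended on the fit. Against 21 higher and 13 lower, one prior over all genes gave 2 and 4, no level filter 5 and 2, a log2 level of at least 8 gave 36 higher, a threshold of 0.10 gave 52 and 53, and taking the larger p of the 2 component comparisons, an alternative chosen after seeing the data, gave 1 and 0. Median scaling gave 19 and 9. Leaving out a library gave 3 to 69 higher and 2 to 111 lower. Replicate numbers were not taken as pairing the libraries. Same-numbered libraries deviated with correlations of 0.21 (Control with LDKO), -0.06 (Control with LTKOFstL/L) and -0.19 (LDKO with LTKOFstL/L). Over the 7544 highest genes the same correlations were larger in size, at 0.41, -0.27 and -0.49. The deviations were thus not unrelated, and their source was not tested. A fit with the replicate number as a block gave 15 higher and 9 lower, with 20 of the 34 genes shared. Genes outside the other libraries numbered 785 above and 643 below at a log2 level of at least 8, 83 and 147 with a distance of at least 0.5, and 1657 to 4481 above and 1669 to 4492 below with a library left out, where fewer libraries have to be ordered. Of the 44 genes run singly, Irs1 ranged from -0.56 to 0.20 and Irs2 from -0.40 to 0.99 with a library left out. No other of these genes reversed in the alternatives run. A gene with both LDKO libraries outside the others cannot reverse when a library is left out, so this does not measure stability. Named genes beyond those 44 were not run singly. Smad3 passed at 0.0496 and missed under median scaling (adjusted p = 0.0641), and Casq2 under the block (0.0775). The cause of these losses was not tested, beyond the fewer samples when a library is left out. Total depth is unknown, so no interval of counting error is given, and 40 of the 56 genes with a distance of at least 1 lie in the lowest of the 3 level strata, where the prior SD was 0.785 against 0.171 in the highest.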

Other observations

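Of the protein-coding genes that did not pass the test by limma with Benjamini-Hochberg adjustment, 3 with wide distances between LDKO and the other libraries are given here, chosen after their values were seen. Ifi202b, an interferon-inducible gene of the p200 family, read 3.11 and 3.71 in LDKO, -1.37 and -0.35 in Control and 0.30 and -0.30 in LTKOFstL/L, a distance of 2.82 to the nearest library and a difference from the average of 3.84 ± 0.60 (adjusted p = 0.0782). Triqk read -3.62 and -2.80 in LDKO, 0.27 and -0.27 in Control and 1.71 and 0.78 in LTKOFstL/L (-3.83 ± 0.61, adjusted p = 0.0782). Edn3, endothelin 3, read -3.48 and -2.66 in LDKO, 0.41 and 1.00 in Control and 0.60 and -0.41 in LTKOFstL/L (-3.47 ± 0.61, adjusted p = 0.0996).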
